A study of Mus musculus with 3 samples.

Results

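The Myc and Max network was described in ALSCs through 9 genes chosen by name: *Myc*, *Mycn*, *Mycl*, *Max*, *Mnt*, *Mga*, *Mxd3*, *Mxd4*, and *Mxi1*. All 9 were found among the 55421 named genes of the deposited count table, once each. ALSCs are primed pluripotent stem cells derived from the epiblast of E6.5 mouse embryos and kept in a medium with Activin A and LIF. The embryos came from ICR females crossed with males that carry the GOF/GFP reporter transgene, which all 3 libraries share. These 3 libraries (replicates 1, 2, and 3) are the only condition analysed here, so no difference from another cell type was tested, and nothing in the labels says whether they came from separate lines or embryos, although the paper calls them biological replicates. Any p-value below therefore measures only the spread between these libraries, which may be technical.

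MYC, MYCN, and MYCL are bHLH-zipper transcription factors that bind DNA as dimers with MAX, at the E-box CACGTG, and activate genes for ribosome production, metabolism, and cell growth. MNT, MGA, and the MXD proteins (MXD1, MXI1, MXD3, and MXD4) compete for the same partner and repress transcription through corepressors. In mouse pluripotent cells, *Myc* and *Mycn* are known to cover for each other, and loss of both puts ESCs into a dormant, diapause-like state.

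Named genes held between 18037342 (replicate 3) and 18724038 (replicate 2) counts per library, of which mitochondrial genes took 1.19% to 1.36%. Levels are given as FPKM, the count divided by the authors' gene length and the library total. The libraries carried the RNA of pluripotent cells, with *Pou5f1* at 648 FPKM, *Nanog* at 171 FPKM, and *Sox2* at 119 FPKM. The other epiblast markers were *Zic2* at 50.4 FPKM and the primed markers *Otx2* and *Fgf5*, which were low at 5.08 and 3.89 FPKM. All 4 naive markers (*Klf4*, *Esrrb*, *Zfp42*, and *Tfcp2l1*) stayed below 1 FPKM, as did *Gata4*, *Gata6*, *Sox17*, *T*, and *Mixl1*. No library had over 3 counts for any of the fibroblast markers *Postn*, *Lum*, *Dcn*, and *Col3a1*. Replicate 1 stood apart from the other libraries in its counts of long genes. Against the mean of replicates 2 and 3, the median log2 ratio of replicate 1 was 0.39 for the 466 genes of up to 1000 bases and -0.35 for the 2050 genes over 8000 bases, where genes averaging 100 counts or more were used.

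The promoters of the network genes are shown first, because MYC and MAX proteins act on the E-box and several of their own genes hold one. A promoter window covered 250 bases before and 50 bases after a start site of RefSeq (GRCm38.p6). Of the members, 8 were matched to such windows, all but *Myc*. The word CACGTG, which reads the same on both strands, was found in the windows of 3 of these 8 genes (37.5%), namely *Max*, *Mnt*, and *Mxd4*. It was present for 1009 of the 8194 matched genes with at least 1 FPKM in all 3 libraries (12.3%), for 8.67% of all matched genes of the table, and in 7.15% of all 32851 promoter windows. The windows of *Mycn*, *Mycl*, *Mga*, *Mxd3*, and *Mxi1* (3 windows for *Mxi1*) did not hold these letters. Outside the members, *Mlx* and *Mlxipl* of the parallel MLX branch held the word as well, while *Mlxip* and *Mxd1* did not. The sequences below run 5′ to 3′ on the strand of the gene with the E-box in capitals, for the 3 members, for *Mlx*, and for the MYC target genes *Cdk4* and *Ldha*.

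Max (chr12:76962234-76962263, minus strand): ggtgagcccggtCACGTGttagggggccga
Mnt (chr11:74830789-74830818, plus strand): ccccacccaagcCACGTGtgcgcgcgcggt
Mxd4 (chr5:34187912-34187941, minus strand): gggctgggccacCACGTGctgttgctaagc
Mlx (chr11:101087238-101087267, plus strand): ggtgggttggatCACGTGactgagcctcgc
Cdk4 (chr10:127063512-127063541, plus strand): aagggtgaagatCACGTGtccagaacgtcc
Ldha (chr7:46845744-46845773, plus strand): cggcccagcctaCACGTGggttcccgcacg

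The E-box of *Max* lay across the RefSeq start site, its first base at position -3. That of *Mnt* began at position -123 and that of *Mxd4* at position -219. In the authors' annotation, *Max* on the minus strand starts at 76962201, so its E-box lies upstream of that start. Of the 10 member windows, 9 had their last 20 bases in a transcript of the same gene. Among the listed MYC-activated targets, 7 of the 28 with a promoter window held the word (25%), and *Cdk4*, a G1 kinase gene, held it at 4 positions. None of the 6 matched MYC-repressed targets did. Promoters of expressed genes are also richer in G and C, with a median of 61.3% against 52.7% for all windows, and the part of base composition in these shares was not tested. No binding was measured, so a match describes the sequence only.

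**Figure D1:**
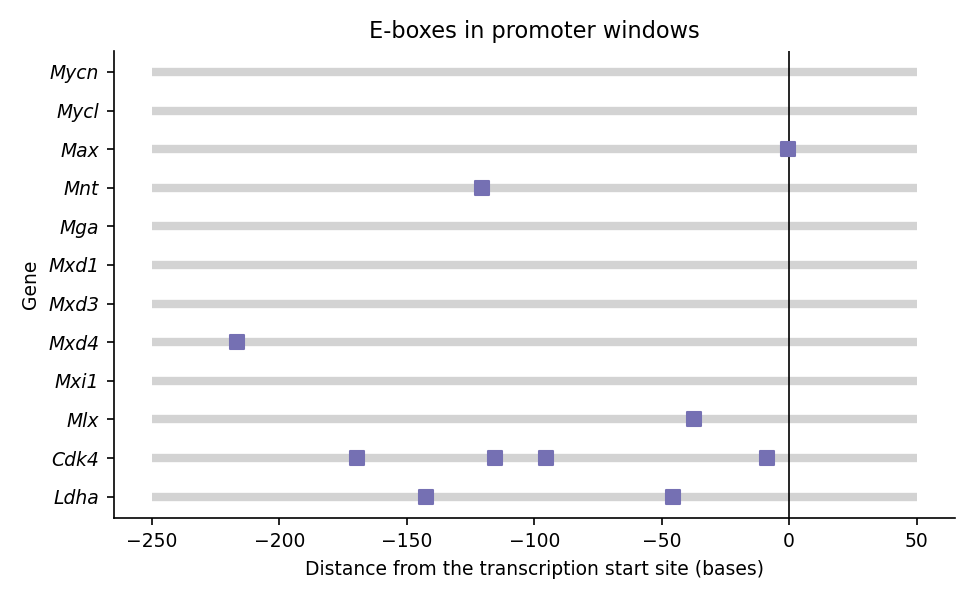
Each grey line is a promoter window of the gene on the vertical axis, from 250 bases before to 50 bases after the start site, plotted by distance from that site in bases. Purple squares mark CACGTG, which is seen once each for *Max*, *Mnt*, *Mxd4*, and *Mlx*, at 4 positions for *Cdk4* and at 2 for *Ldha*. The 3 windows of *Mxi1* share 1 line.

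*Mycn* was the most abundant of the 9 genes. *Mycn* (ENSMUSG00000037169; GRCm38 chromosome 12, 12936093 to 12941914) was at 32.6, 34.9, and 34.7 FPKM in replicates 1, 2, and 3, a mean of 34.1 ± 1.27 FPKM (SD, n = 3). The values of the 3 libraries lay close together, and 84.4% of the 11125 genes that reached 1 FPKM in all libraries (the expressed genes below) had a lower mean. *Mycl* (ENSMUSG00000028654; chromosome 4, 122995652 to 123002485) was at 9.78, 11.8, and 10.5 FPKM, a mean of 10.7 ± 1.02 FPKM (SD, n = 3). *Myc* itself (ENSMUSG00000022346; chromosome 15, 61985391 to 61990374) was the lowest of the family at 6.19, 6.76, and 5.73 FPKM, a mean of 6.23 ± 0.515 FPKM (SD, n = 3). The 3 family members kept this order in every library, and their ranges did not overlap. *Myc* lay below the middle of the expressed genes, with 41.8% of them at a lower mean.

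Within a library, the level of *Mycn* was 5.28, 5.17, and 6.05 times that of *Myc* in replicates 1, 2, and 3, a mean ratio of 5.50 ± 0.484 (SD, n = 3). *Mycn* made up 66.9% ± 1.43 of the summed FPKM of the family, *Mycl* 20.9% ± 1.00, and *Myc* 12.2% ± 0.829 (SD, n = 3 for each). These shares describe RNA per length and not protein. All 50-base words of the longest coding transcripts of *Myc*, *Mycn*, and *Mycl* occurred in no other gene of GENCODE M21, so their reads could be told apart. The genes closest to *Mycn* in level were *Pbx2*, *Wbp11*, and *Sar1a*, which differed from it by at most 0.02, 0.03, and 0.03 on the log2 FPKM scale in any of the 3 libraries. Those closest to *Myc* were *Josd2*, *Pomgnt1*, and *Trmo*, by at most 0.06, 0.07, and 0.07. With 40 protein-coding genes within 0.1 of *Mycn* and 16 within 0.1 of *Myc*, such closeness is common.

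*Max* (ENSMUSG00000059436; chromosome 12, 76937269 to 76962201), which encodes the shared dimer partner, was second in level at 19.0, 20.2, and 18.6 FPKM. Its mean was 19.3 ± 0.807 FPKM (SD, n = 3). The libraries of *Max* spanned a narrow range that overlapped with no other member. Against the summed level of the Myc family, *Max* stood at a ratio of 0.391, 0.377, and 0.366 in replicates 1, 2, and 3. The level of *Max* depended on the gene length used. The authors' table gives 3598 bases, while the longest coding transcript of GENCODE M21 has 1942 bases, and with the latter *Max* was at 35.7 ± 1.49 FPKM (SD, n = 3). *Mycn*, at 42.0 ± 1.56 FPKM (SD, n = 3), still came first on that scale, and the ratio of *Max* to the family was 0.580.

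Among the repressor genes, *Mnt* was the highest. *Mnt* (ENSMUSG00000000282; chromosome 11, 74830920 to 74845725), whose product is a broadly expressed MAX-binding repressor, was at 11.5, 15.2, and 13.7 FPKM, a mean of 13.5 ± 1.87 FPKM (SD, n = 3). Its lowest library lay below the highest of *Mycl*, so their ranges overlapped, although *Mnt* was above *Mycl* in each of the 3 libraries. *Mxd4* (ENSMUSG00000037235; chromosome 5, 34173883 to 34187720) was at 6.55, 8.06, and 7.51 FPKM, a mean of 7.37 ± 0.764 FPKM (SD, n = 3). This level, too, depended on the length used, and with that of the longest coding transcript *Mxd4* was at 13.5 ± 1.40 FPKM (SD, n = 3), above *Mycl* at 12.3 FPKM and *Mga* at 8.54 FPKM and next to *Mnt* at 13.6 FPKM. *Mxi1* (ENSMUSG00000025025; chromosome 19, 53310518 to 53375810) was at 4.90, 4.42, and 4.75 FPKM, a mean of 4.69 ± 0.245 FPKM (SD, n = 3). *Mxd3* (ENSMUSG00000021485; chromosome 13, 55325168 to 55329823), known for its expression in S phase of proliferating cells, was the lowest member at 3.43, 2.82, and 2.71 FPKM, a mean of 2.99 ± 0.387 FPKM (SD, n = 3). The 147, 125, and 116 counts of *Mxd3* are uncertain, since its last 105 bases overlap with *Prelid1* on the other strand, which had 6147 to 7347 counts, and no source states whether counting used strand. *Mxd1*, the founding gene of the MXD group and not among the 9 members, was at 0.532, 0.740, and 0.635 FPKM, below 1 FPKM in every library.

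*Mga* (ENSMUSG00000033943; chromosome 2, 119897228 to 119969581) was the member that differed most between the libraries. It encodes a large protein with a T-box and a bHLH-zipper, which binds MAX within a Polycomb complex known to repress germline genes. Its level was 4.47 FPKM in replicate 1 against 9.65 and 9.14 FPKM in replicates 2 and 3, from 1239, 2772, and 2530 counts. Replicate 1 was thus far below the others, and only there did *Mga* lie below *Mxi1*. The mean of 7.75 ± 2.86 FPKM (SD, n = 3) fell between a low library and a close pair, and without replicate 1 it was 9.40 FPKM.

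**Figure D2:**
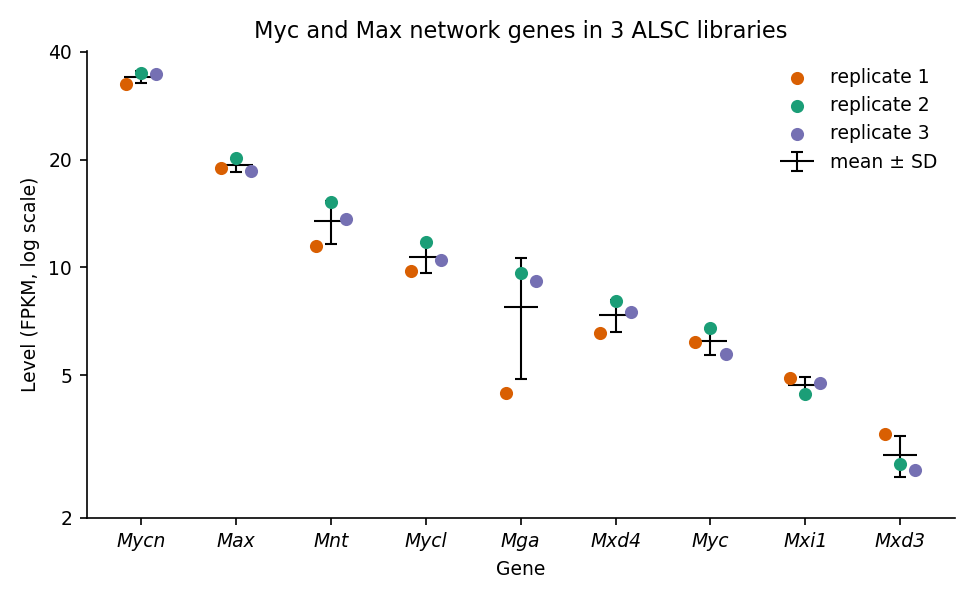
FPKM on a log scale for each of the 9 genes, ordered by mean, with 1 point per ALSC library and the mean ± SD of the 3 libraries. *Mycn* lies above all others at 32.6 to 34.9 FPKM, and *Mga* is split between 4.47 FPKM in replicate 1 and 9.14 to 9.65 FPKM in the others.

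In the order of mean level, *Mycn*, *Max*, *Mnt*, *Mycl*, *Mga*, *Mxd4*, *Myc*, *Mxi1*, and *Mxd3* followed each other. Neighbours overlapped in 3 of the 8 steps, between *Mnt* and *Mycl*, between *Mga* and *Mxd4*, and between *Mxd4* and *Myc*. By their ranges these pairs are not separated. Within a library, however, *Mnt* lay above *Mycl* and *Mxd4* above *Myc* in all 3, and *Mga* above *Mxd4* in 2 of 3. All 9 members reached 1 FPKM in every library, a level met by 20.1% of all named genes. The authors' table assigns 8 of them to the bHLH family, of which 39 of 107 genes reached 1 FPKM in all libraries, and *Mga* to the T-box family. Within the bHLH genes, *Mycn* ranked 5 by mean level, after *Tcf3*, *Srebf2*, *Srebf1*, and *Usf1*. *Max* ranked 13 and *Myc* ranked 21.

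The summed level of *Myc*, *Mycn*, and *Mycl* was 48.6, 53.5, and 51.0 FPKM in replicates 1, 2, and 3. The summed level of the 6 MAX-binding repressor genes, *Mxd1* included, was 31.4, 40.9, and 38.5 FPKM. The family exceeded the repressors in each library, by a ratio of 1.55, 1.31, and 1.33, with a mean of 1.39 ± 0.134 (SD, n = 3). The ratio was highest in replicate 1, where *Mga* made up 14.2% of the repressor sum against 23.6% and 23.8% in the others. *Mnt* made up 36.5% ± 0.817 of it (SD, n = 3). Such sums count transcripts per length and do not tell how many dimers of each kind form.

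**Figure D3:**
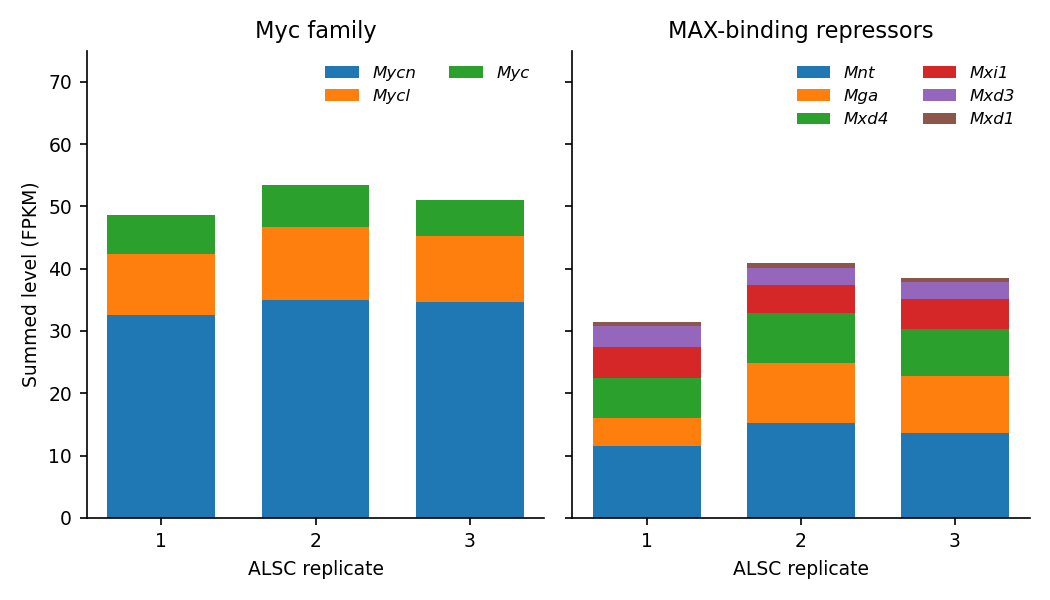
Summed FPKM in each ALSC library, with the Myc family on the left and the MAX-binding repressors on the right, stacked by gene from 0. The family reaches 48.6 to 53.5 FPKM, mostly from *Mycn*, and the repressors 31.4 to 40.9 FPKM, with the smallest share of *Mga* in replicate 1.

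For each gene, its counts in the 3 libraries were compared with those that TMM library sizes predict, by a chi-square test of homogeneity, with Benjamini-Hochberg adjustment over 16944 genes. A gene with many counts passes this test at a small difference, and 47.2% of the genes tested passed at 0.05. Among the expressed genes, which include all 9 members, 60.6% passed. Of the members, 4 of 9 did, *Mga* (adjusted p = 1.76e-109), *Mnt* (adjusted p = 3.2e-06), *Mxd4* (adjusted p = 0.00415), and *Mycl* (adjusted p = 0.0432), a share near the former background and below the latter. All 4 were lowest in replicate 1. The others did not pass, with adjusted p = 0.0527 for *Mxi1*, 0.0801 for *Mxd3*, 0.241 for *Myc*, 0.294 for *Max*, and 0.846 for *Mycn*. After TMM scaling, the highest library of *Mycn* was 1.02 times the lowest, and that of *Max* 1.07 times. For *Mga* the ratio was 2.04. The median over the 9 members was 1.16, beside 1.23 over genes averaging 100 counts or more.

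Without replicate 1, none of the 9 members passed the same chi-square test, whose background was then 8.11% of 16062 genes. The adjusted p of the members ranged from 0.155 for *Mnt* to 0.955 for *Mxd3*. At an unadjusted p below 0.05 the count was 2 of 9, but no share over all genes is given for that threshold, so nothing is read from it. The level of *Mga* in replicate 1 fell by 50.1% against the mean of replicates 2 and 3 (TMM scale), a log2 ratio of -1.0. Its annotated length is 15340 bases, and long genes had fewer counts in replicate 1 in general. With the trends on gene length and GC content over all genes removed, the log2 ratio of *Mga* was -0.57, and its counts still varied (adjusted p = 3.89e-34, chi-square test). *Mnt* moved from -0.26 to -0.15 and still passed (adjusted p = 0.0124). *Mxd4* turned from -0.18 to 0.11, and *Mycl* moved from -0.12 to -0.08, and neither passed then (adjusted p = 0.157 and 0.163). *Mxi1*, which is 6823 bases long and was not lower in replicate 1, passed with these trends removed (log2 ratio 0.33, adjusted p = 4.51e-05). In all, 3 members passed then, beside 37.6% of all genes tested, and 5 passed with the length trend alone removed, beside 38.6%. Leaving out replicate 2 gave 2 members beside 42.9%, and leaving out replicate 3 gave 5 members beside 46.7%.

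**Figure D4:**
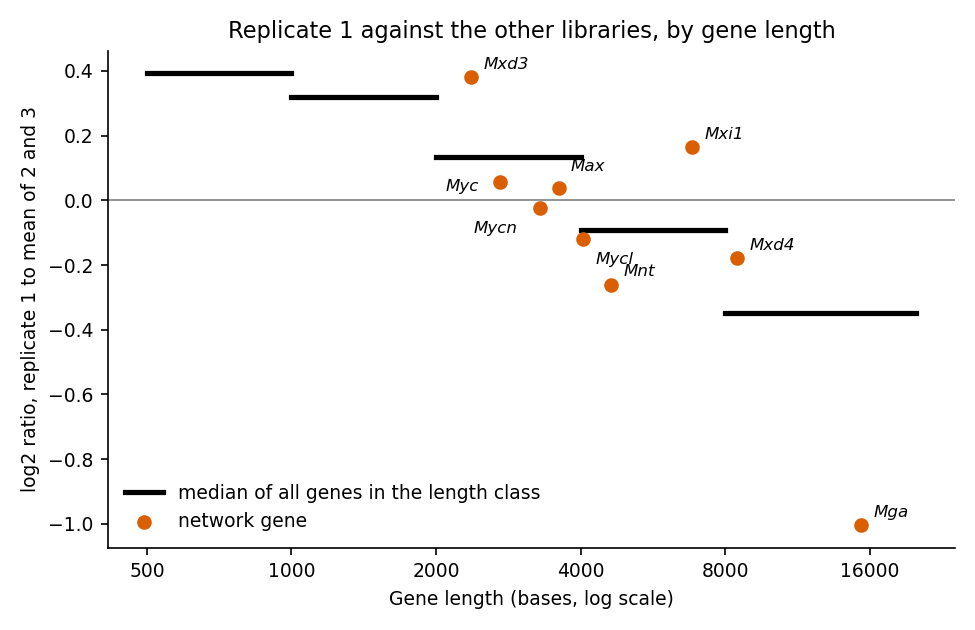
The log2 ratio of TMM-scaled counts in replicate 1 to the mean of replicates 2 and 3, against gene length in bases on a log scale, for the 9 genes (orange) and as the median of all genes in 5 length classes (black bars, genes averaging 100 counts or more). The medians fall from 0.39 to -0.35 with length, and *Mga* lies below the bar of its class at -1.0.

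Next to the MYC and MAX genes stands the MLX branch, whose proteins bind the same kind of site and respond to glucose metabolites. *Mlx*, the counterpart of *Max*, was at 21.5, 23.1, and 25.8 FPKM, although 82.5% of the 50-base words of its transcript were unique and its 3′ end overlaps with *Psmc3ip* on the other strand. *Mlxip*, which encodes MondoA, was at 3.71, 6.97, and 6.10 FPKM, lowest in replicate 1 as *Mga* was. *Mlxipl*, which encodes ChREBP, was at 2.42, 2.04, and 2.18 FPKM. Their known targets *Txnip* and *Arrdc4* were at 91.3 ± 2.97 and 15.9 ± 0.250 FPKM (SD, n = 3 for each). Of these 5 genes, *Mlx*, *Mlxip*, and *Txnip* varied between the libraries beyond counting error (adjusted p = 0.0148, 2.12e-27, and 2.29e-08, chi-square test). This count is to be read against 47.2% of all genes tested and 60.6% of the expressed genes, and so is not particular to these genes. Without replicate 1 the adjusted p of *Mlx*, *Mlxip*, and *Txnip* was 0.0834, 0.0804, and 0.762 in the same test.

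All 13 MYC cofactor genes were at 1 FPKM or more in every library, with a median of 26.6 FPKM beside 8.21 FPKM over the 11125 expressed genes. The highest were the helicase genes *Ruvbl2* at 114 ± 6.73 FPKM and *Ruvbl1* at 95 ± 7.0 FPKM, and the acetyltransferase gene *Kat2a* at 55.9 ± 5.82 FPKM (SD, n = 3 for each). The lowest were the scaffold gene *Trrap* at 6.03 FPKM, the cyclin gene *Ccnt1* at 6.22 FPKM, and *Zbtb17*, which encodes MIZ1, at 7.05 FPKM. Of the 13, 10 varied between the libraries. This count and those of the lists below are to be read against 47.2% of all genes tested and 60.6% of the expressed genes. Direction was taken from the sign of the log2 ratio of replicate 1 to the mean of replicates 2 and 3 (TMM scale). By that sign, 4 of the 10 were higher and 6 lower in replicate 1. The lists below use the same sign, which does not make replicate 1 the highest or lowest library. For *Zbtb17*, counted as higher, the log2 ratio was 0.01 and replicate 1 lay between replicates 2 and 3. *Ep400* differed most, with 1375, 3145, and 2960 counts. Without replicate 1, 4 of the 13 varied. This count and those below without replicate 1 are to be read against 8.11% of all genes tested and 1117 of the 11125 expressed genes.

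The partners of MGA in its Polycomb complex were all expressed, 13 of 13 at 1 FPKM or more in each library. *Pcgf6*, the subunit gene that defines the complex, was at 14.2 ± 0.299 FPKM and *L3mbtl2* at 15.6 ± 1.10 FPKM (SD, n = 3 for each), both named for that role after their values were seen. The highest were *Tfdp1* at 72.9 FPKM, *Hdac2* at 71.5 FPKM, and *Wdr5* at 52.9 FPKM, and the lowest *Tfdp2* at 4.35 FPKM, *Ring1* at 4.8 FPKM, and *Rybp* at 11.2 FPKM. Of these genes 6 of 13 varied (46.2%, near the 47.2% of all genes tested and below the 60.6% of expressed genes). Of these 6, 4 were lower in replicate 1 by the sign of the log2 ratio, among which *Rybp* differed most (713, 1113, and 1093 counts). For *Cbx3*, also among the 4, the log2 ratio was -0.03 and replicate 1 lay between replicates 2 and 3. Without replicate 1, 2 of the 13 varied, beside 8.11% of all genes. *Pcgf6* showed no low library like that of *Mga*, with 1289, 1360, and 1256 counts (adjusted p = 0.374, chi-square test). However, *Pcgf6* has 5027 bases and *Mga* 15340, and long genes in general had fewer counts in replicate 1. The part of length in this contrast was not tested.

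The SIN3 corepressor is that through which the MXD proteins and MNT act. Its list, which also holds *Ncor1* of another corepressor, had 10 of 10 genes at 1 FPKM or more and a median of 41.8 FPKM. *Rbbp7* at 105 FPKM, *Sap30* at 83.0 FPKM, and *Hdac2* led the list, and *Suds3* at 9.0 FPKM, *Ncor1* at 15.6 FPKM, and *Sin3b* at 18.4 FPKM closed it. In this list 8 of 10 genes varied (80% beside 60.6% of expressed genes), 6 of them higher in replicate 1, and *Ncor1* differed most with 2191, 4546, and 4218 counts. Without replicate 1 only *Hdac2* of the 10 varied (adjusted p = 8.33e-10, chi-square test). *Hdac1* and *Hdac2* belong to both this list and that of the MGA complex.

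Of the 18 genes for the turnover of MYC proteins, 17 were at 1 FPKM or more. *Set* led at 356 ± 22.1 FPKM, followed by the kinase gene *Aurka* at 77.4 ± 3.44 FPKM, whose product is known to stabilise MYCN (SD, n = 3 for each). *Fbxw7*, the ubiquitin ligase subunit that recognises phosphorylated MYC, was near the lower end at 4.47 FPKM, and *Pim1* was at 3.26 FPKM. The exception was *Skp2*, a ubiquitin ligase subunit gene used by most cycling cells, which is listed at exactly 0 counts in every library. That entry is doubtful and is not read as absence of expression. Of the 17 genes tested, 12 varied (70.6% beside 60.6% of expressed genes), 9 of them lower in replicate 1. *Huwe1*, a very long gene, differed most with 4080, 11552, and 10242 counts, and it was among the 3 genes that varied without replicate 1 (adjusted p = 3.58e-05, chi-square test).

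All 36 genes of the list of MYC-activated targets were at 1 FPKM or more in every library, with a median of 93.6 FPKM, above 94.4% of the expressed genes. *Npm1*, a nucleolar chaperone gene, was at 1375 ± 192 FPKM, *Ldha*, for lactate dehydrogenase, at 876 ± 53.8 FPKM, and *Eif4a1*, for a translation helicase, at 627 ± 57.3 FPKM (SD, n = 3 for each). The lowest were the telomerase gene *Tert* at 2.45 FPKM, the cyclin gene *Ccnd2* at 5.68 FPKM, and *Wdr12* at 11.3 FPKM. Of the 36, 34 varied between the libraries (94.4% beside 60.6% of expressed genes). By the sign of the log2 ratio, 24 of them were higher and 10 lower in replicate 1. The 10 include *Odc1* at a log2 ratio of -0.001, for which replicate 1 lay between replicates 2 and 3. The largest ratio of highest to lowest library was 1.67, for *Tert* (179, 327, and 265 counts). Without replicate 1, 16 of the 36 varied, beside 8.11% of all genes and 1117 of the 11125 expressed genes. Most of these targets have far more counts than those backgrounds, and with many counts a gene passes at a small difference. The median ratio of highest to lowest library over the list was 1.19, beside 1.23 over genes averaging 100 counts or more. Many other factors drive these genes, so their levels do not measure MYC activity.

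Of the 8 listed genes that MYC represses, 6 were at 1 FPKM or more, with a median of 12.1 FPKM. *Ndrg1* was at 18.4 FPKM, and the cell cycle inhibitor genes *Cdkn1a* and *Cdkn1b* were at 17.0 and 15.7 FPKM. *Ddit3* was at 7.96 FPKM. *Cdkn2b*, an inhibitor gene that MYC represses through MIZ1, was at 0.393 ± 0.159 FPKM from 14, 10, and 6 counts, and the endoderm gene *Gata6* at 0.0951 ± 0.0108 FPKM from 11, 13, and 10 counts (SD, n = 3 for each). Of the 8, *Ndrg1* and *Cdkn1b* varied between the libraries, a share of 25% beside 47.2% of all genes tested (adjusted p = 1.02e-05 and 0.00014, chi-square test), and both also did without replicate 1 (adjusted p = 3.48e-05 and 0.0206).

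The pathways that act upstream of *Myc* in pluripotent cells were represented by 12 genes, all at 1 FPKM or more, with a median of 16.6 FPKM. *Lefty1*, a Nodal target, was at 350.1 FPKM, *Ctnnb1*, for β-catenin, at 178 FPKM, and the STAT3 target *Socs3* at 35.0 FPKM. The LIF receptor genes *Lifr* and *Il6st* were at 1.36 and 3.16 FPKM, and the WNT target *Axin2* at 2.48 FPKM. Of the 12, 9 varied (75% beside 60.6% of expressed genes), 7 of them lower in replicate 1, with *Il6st* differing most (418, 791, and 717 counts). Without replicate 1, 3 of the 12 varied, beside 8.11% of all genes. In RNA of whole cultures, fewer cells that express a gene and less RNA per cell cannot be told apart.

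**Figure D5:**
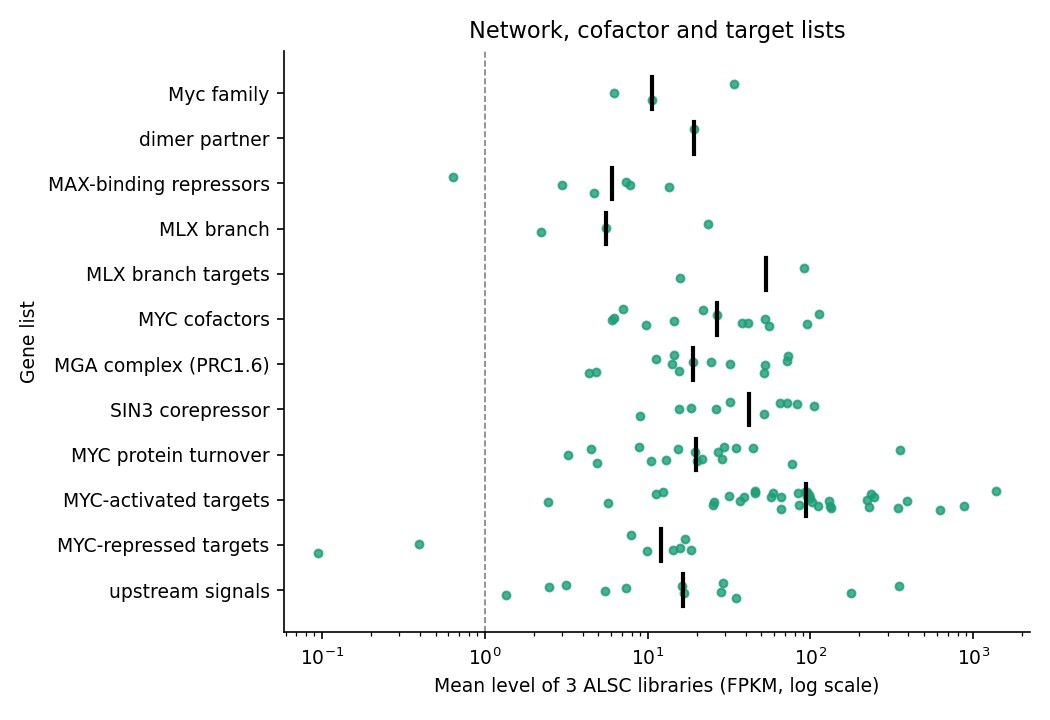
Mean FPKM of the 3 ALSC libraries on a log scale, 1 point per gene, for the lists named on the vertical axis, with the median of each list as a black bar and 1 FPKM as a dashed line. The MYC-activated targets have the highest median of these lists, at 93.6 FPKM, and *Skp2*, at 0 counts, is not drawn.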

How the data were processed

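RNA-seq was made from 3 ALSC libraries with a poly(A) TruSeq kit, and paired-end reads were mapped by the authors to GRCm38. The submitters' processing notes name HISAT2 2.0.5. The counting program and its handling of strand are not given in the sources used here. The authors deposited raw counts per gene, not normalized, with gene positions and lengths. The 3 other columns of counts match no sample of this series and were not used. The 317 rows without a gene name (0.165% to 0.182% of the counts) were left out.

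FPKM was computed from the counts, the authors' gene length, and the total on named genes. A single read on 1 kb was worth 0.0534 to 0.0554 FPKM. TMM factors (0.968, 1.02, and 1.01) came from edgeR 4.0.16, with DESeq2 1.42.0 size factors as an alternative, in R 4.3.3. The chi-square test used genes with at least 10 counts in total, was tested on simulated data, and covers counting error only, since reads are not independent molecules. The trends of each library on length and then GC content joined the medians of 20 equal groups of genes averaging 100 counts or more. Promoter windows came from RefSeq, and transcripts from GENCODE M21. Python 3.11.15 was used with SciPy 1.17.1.

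The members and lists were chosen with earlier results of these data known. Named were all members, every gene of lists of up to 6 genes, and of longer lists the 3 highest, the 3 lowest, and the gene with the largest ratio between libraries. A gene that this rule names is not reported here.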

Additional observations from a re-analysis of the deposited data

How the results depend on the processing

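No paired analysis was possible because ALSCs were the only condition analysed. The ratio of *Mycn* to *Myc* and that of the Myc family to the repressors moved by less than 1 SD with transcript lengths and on leaving out each library in turn, while a ratio within a library cannot change with library size. With the length of the longest coding transcript, the levels of 7 members moved by more than 1 SD and 3 members changed their place in the order of levels (*Mxd4* then lay above *Mycl* and *Mga*), and without a library 0 to 2 did. The number of members that varied between libraries was 4 and ranged from 0 to 5 without 1 library, and the share of all genes that varied ranged from 8.11% to 46.7%, in both cases lowest without replicate 1. Removing the trend on length alone gave 5 members, and removing those on length and GC content, which was chosen after seeing the data, gave 3. The call of *Mycl* was lost without a filter on low counts (adjusted p = 0.0593), without replicate 1 (0.217), and without replicate 2 (0.651), and that of *Mxd4* without replicate 2 (0.0583) and with the length trend removed (0.339). In the same chi-square test, *Mxi1* passed without replicate 3 (0.0162), with a filter at 100 counts in total (0.0422), and with the length trend alone removed (1.85e-05). *Mycn* passed with the length trend alone removed (0.0218). Without a filter on low counts, 3 members passed, beside 32.5% of all genes tested. With the filter at 100 counts, 5 did, beside 60.7%. The depth limits *Mxd3* most among the members, with 116 to 147 counts per library, and 3 libraries give little hold on the spread between cultures.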
